A study of Mus musculus with 6 samples.

Results

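Agrin (Agrn), its receptor LRP4 (Lrp4) and its matrix receptor dystroglycan (Dag1) were followed in hippocampal RNA of CTRL mice and mice labelled L-DL KD. The set was chosen by name, as a ligand and the cell surface proteins that bind it, and holds 3 of the 52550 genes counted and 17 of the 40961 splicing events listed. All 17 events lay in Agrn (15) or Dag1 (2), and none was listed for Lrp4. Male C57BL/6 J mice had received adeno-associated virus (AAV) in the CA1 areas of both hippocampi at 8 weeks of age. The virus of the 3 CTRL mice carried a control shRNA, and that of the 3 L-DL KD mice carried shRNAs against L-DL, the long form of hnRNP DL. In the L-DL vector the shRNAs were driven by H1 promoters, which are not limited to neurons, and only the fluorescent reporter by a CamkIIα promoter, which is active in excitatory neurons. The control virus was given at a higher titre than the L-DL virus. The sample labels call the CTRL group wild type and the modified group both a knockdown and a -/-.

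Agrin is a large heparan sulfate proteoglycan of basement membranes. At the nerve-muscle synapse it is released by the motor nerve, binds LRP4, and so switches on the receptor kinase MuSK, which gathers acetylcholine receptors under the nerve. What agrin can do depends on short exons near the end of its coding sequence. The Y exon alters binding to heparin and dystroglycan, and the Z exons, used mainly by neurons, give the agrin that activates MuSK strongly, whereas agrin made by vessels and glia lacks them. Dystroglycan joins agrin and laminins outside the cell to dystrophin inside it. In brain it sits on the astrocyte endfeet around vessels and at some inhibitory synapses, and LRP4 is found mostly in astrocytes and at some synapses.

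The sequences that separate the Agrn forms are shown first, because the differences between the groups lay in these exons. They were read from the GENCODE M21 transcript Agrn-203 (GRCm38, minus strand of chromosome 4), the only one of 7 annotated Agrn transcripts with all 3 optional exons. Each line runs 5′ to 3′ and joins the last 15 bases of the exon before and the first 15 of the exon after, with optional exons in capitals. The 12 nt Y exon (exon 30, chr4:156169546-156169557) gives these junctions.
Y exon skipped: ctaggggaatctccggtcccgcacaccatg
Y exon included: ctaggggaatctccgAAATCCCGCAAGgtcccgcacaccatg

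At the Z site, exon 33 (chr4:156168733-156168820) can be joined to exon 36 (chr4:156167282-156167506) directly, through the 24 nt exon 34 (chr4:156168546-156168569), through the 33 nt exon 35 (chr4:156167777-156167809), or through both. These give the forms known as Z0, Z8, Z11 and Z19 after the codons they add.
no Z exon: tgctgtgactgagagtgagaaagcgctgca
24 nt exon: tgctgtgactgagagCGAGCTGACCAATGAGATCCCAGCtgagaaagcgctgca
33 nt exon: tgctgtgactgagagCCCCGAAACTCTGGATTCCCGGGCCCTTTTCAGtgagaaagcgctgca
24 nt and 33 nt exons: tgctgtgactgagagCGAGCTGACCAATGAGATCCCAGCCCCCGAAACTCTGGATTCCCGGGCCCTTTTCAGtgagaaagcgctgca
All optional exons are coding and keep the reading frame. The coding length is 5784 nt without any of them, 5796 nt with the Y exon and 5841 nt with both Z exons, and no form has a stop codon before its end.

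The number of reads counted on genes was 16052529 to 16995425 per CTRL library and 16525467 to 17913064 per L-DL KD library. Junction counts summed over all events were 6760349 to 7089670 and 7153540 to 7939931. Hnrnpdl, the targeted gene, was at 176, 184 and 171 CPM (counts relative to library size, scaled by the TMM method) in CTRL and 217, 150 and 173 CPM in L-DL KD, with a log2 fold change of 0.03 (adjusted p = 0.898, edgeR). Its gene counts thus give no check of the labels, and counts over the whole gene do not separate L-DL from the other forms. L-DL KD is used below for the libraries so labelled. Every neuronal marker tested differed between the groups, with 10 of 12 lower in L-DL KD and Nefl and Nefm higher, and all 10 microglial and all 6 meningeal fibroblast markers were higher, where 15.6% of all genes tested were called higher and 15% lower. In RNA from whole tissue, fewer cells of a type and less RNA per cell cannot be told apart.

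The choice of Agrn exons was compared first. Inclusion is given as PSI, the share of a gene's junction counts at a segment that include it, after division by the effective length of each form, on a scale from 0 to 1. The splicing table gives its 3 libraries of each group without replicate numbers, so they are named by their place in it. At the Z site, far fewer Agrn junctions carried a Z exon in L-DL KD than in CTRL, and the same held to a lesser extent for the Y exon.

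The 24 nt Z exon, the one that by itself gives agrin strong MuSK activity, had PSI values of 0.212, 0.229 and 0.380 in CTRL and 0.111, 0.0703 and 0.0687 in L-DL KD. These values set the exon against the form with no Z exon and leave out reads that join it to the other Z exon. Its share over all forms is larger in CTRL and is given below. All 3 L-DL KD libraries lay below the lowest CTRL library. Inclusion relative to skipping was 4.09-fold lower in L-DL KD (log2 change -2.03, standard error 0.46, edgeR quasi-likelihood test, Benjamini-Hochberg adjusted p = 0.0953). The test did not pass the threshold of 0.05 over the 18829 events tested, where this exon ranked 158 in order of p.

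PSI of the 33 nt Z exon, counted against direct joining of exons 33 and 36, was 0.125, 0.118 and 0.220 in CTRL and 0.0287, 0 and 0.00868 in L-DL KD. Its inclusion counts were 23, 17 and 34 in CTRL against 6, 0 and 2 in L-DL KD. The groups did not overlap, and L-DL KD inclusion was near or at 0. Relative to skipping it was 13.4-fold lower in L-DL KD (log2 change -3.74, standard error 0.71, edgeR adjusted p = 0.0569, rank 62). Without the L-DL KD library at place 1, the one with the 6 counts, the change was -5.04 (adjusted p = 0.0408), and without any other single library it ranged from -3.93 to -3.23 and did not pass (adjusted p 0.156 to 0.252). It did not pass with limma either (adjusted p = 0.179).

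The 12 nt Y exon was the most included of the optional exons, at 0.822, 0.799 and 0.752 in CTRL against 0.672, 0.523 and 0.525 in L-DL KD. Every L-DL KD library was below every CTRL library, although more than 0.5 of the junctions still held the exon. The inclusion counts behind these values were 154, 175 and 111 in CTRL and 110, 92 and 82 in L-DL KD, and the skipping counts were 31, 41 and 34 against 50, 78 and 69. Inclusion relative to skipping was 2.83-fold lower (log2 change -1.503, standard error 0.40, edgeR adjusted p = 0.142, rank 377).

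**Figure D1:**
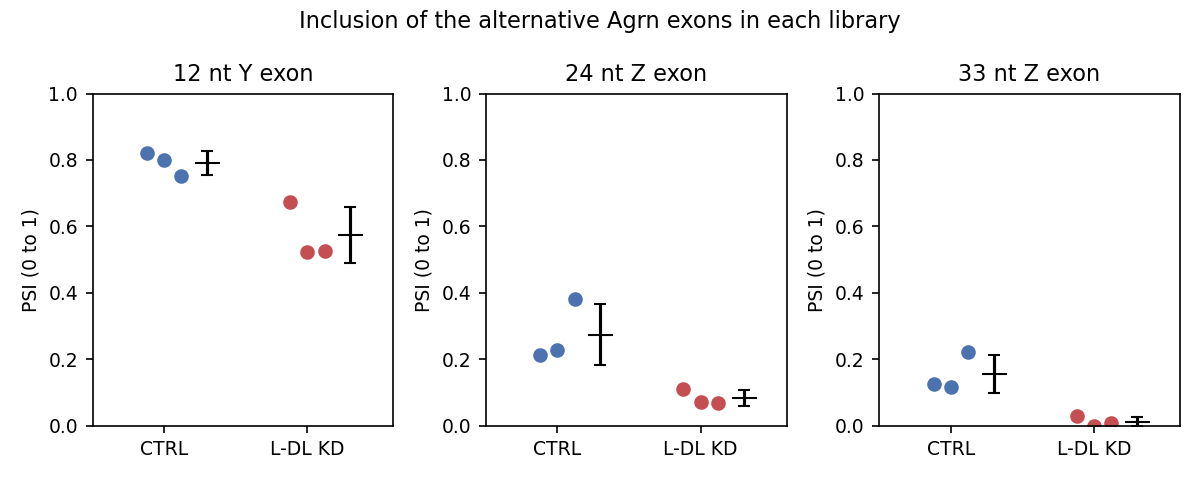
PSI (0 to 1, vertical axis) of the 12 nt Y exon, the 24 nt Z exon and the 33 nt Z exon of Agrn in each of 3 CTRL (blue) and 3 L-DL KD (red) libraries, with the mean and SD beside the points. In each panel the 3 L-DL KD points lie below the 3 CTRL points, and the 33 nt exon is near or at 0 in all 3 L-DL KD libraries. Each Z exon is set against the form with no Z exon, and reads that join the Z exons to each other are left out.

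Of the 17 events listed for the 3 genes, 12 had enough counts of both forms to be tested, 11 in Agrn and 1 in Dag1. None passed an adjusted p of 0.05 with edgeR, where 0.255% of all events tested did. None passed with limma on the log2 ratio of the forms, which called 0 of all events tested. At an unadjusted p under 0.05, edgeR gave 6 of the 12 against 13.3% of all events. Limma gave 5, and its share over all events was not counted. At an unadjusted p under 0.001 there were 2, the 24 nt and the 33 nt exon, against 0.977% of all events. The groups did not overlap in 7 of the 12, against 18.4% of all events. Of the 12, 8 lay between exons 33 and 36 and share junction reads, so they are not independent of each other.

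Because these 8 events share junctions, the Z site was also split into its 4 forms by the 1 junction that each form alone has. Exons 33-36 mark no Z exon, 34-36 the 24 nt exon alone, 33-35 the 33 nt exon alone and 34-35 both. This split was chosen after values of the single events had been seen, and its shares leave out transcripts that keep the intron between exons 34 and 35. In CTRL about as many transcripts carried a Z exon as carried none, and in L-DL KD most carried none.

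A Z exon was found in 95 of 227, 105 of 210 and 111 of 210 form-specific counts in CTRL, or 41.9%, 50% and 52.9%. In L-DL KD it was found in 42 of 209, 24 of 173 and 19 of 207, or 20.1%, 13.9% and 9.18%. The lowest CTRL share (95% Wilson interval 35.6% to 48.4%) and the highest L-DL KD share (15.2% to 26.1%) did not overlap within counting error, which is all that these intervals cover. The mean share was 48.2% ± 5.71 (SD, n = 3) in CTRL and 14.4% ± 5.48 (SD, n = 3) in L-DL KD, a difference of -33.9 points (two-sided exact permutation p = 0.1, the smallest that 3 against 3 libraries allow). Counting the reads that retained this intron as a further form with a Z exon, at their effective length, gave 47.7%, 53.5% and 57.7% in CTRL and 24.4%, 21.99% and 16.1% in L-DL KD, which still did not overlap.

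Each of the 3 forms with a Z exon was lower in every L-DL KD library than in any CTRL library. The form with both exons took 25.4% ± 4.82 (SD, n = 3) in CTRL and 6.69% ± 4.70 (SD, n = 3) in L-DL KD, where the library at place 3 had 3 such counts of 207. The form with the 24 nt exon alone took 18.6% ± 6.13 against 7.22% ± 1.26 (SD, n = 3 each). The form with the 33 nt exon alone was the rarest in CTRL, at 11, 8 and 8 counts, and had 3, 0 and 0 counts in L-DL KD, where a count of 0 allows a share of up to 1.73% at place 2 and 1.45% at place 3. Most transcripts with the 33 nt exon thus also had the 24 nt exon. With or without the other Z exon, the 24 nt exon took 44.1% ± 6.29 of form-specific counts in CTRL and 13.9% ± 4.74 in L-DL KD (SD, n = 3 each). For the 33 nt exon these shares were 29.6% ± 4.48 and 7.17% ± 5.32 (SD, n = 3 each).

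Junction counts summed over all events were higher in the L-DL KD libraries, so the forms were also set against these totals. Counts of any Z exon were 13.6, 14.8 and 16.4 for every 1000000 junction counts in CTRL and 5.32, 3.02 and 2.66 in L-DL KD, a mean 4.08-fold lower without overlap (exact permutation p = 0.1). Counts of the form with no Z exon were 18.9, 14.8 and 14.6 in CTRL and 21.2, 18.8 and 26.3 in L-DL KD on the same scale. Their mean was 1.37-fold higher, but the groups overlapped at CTRL place 1 and L-DL KD place 2 (exact permutation p = 0.2). Unscaled counts that include the downstream exon 37 (chr4:156166911-156167014) were 418, 381 and 299 against 376, 349 and 300.

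Among transcripts that held the 24 nt exon, the share that went on to the 33 nt exon was 58.0% ± 9.80 (SD, n = 3) in CTRL and 43.5% ± 24.03 (SD, n = 3) in L-DL KD. Here the groups overlapped (exact permutation p = 0.5), so at this depth a difference in how the Z exons were combined was not detectable.

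**Figure D2:**
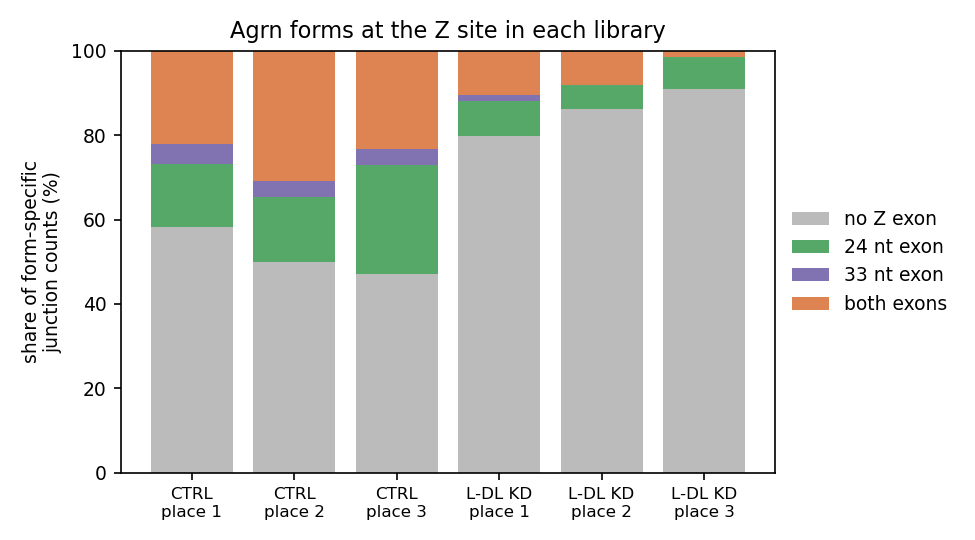
Share (%) of form-specific junction counts at the Agrn Z site in each library, stacked by form, with libraries in their order in the splicing table. The grey part without a Z exon takes 47.1% to 58.2% of each CTRL bar and 79.9% to 90.8% of each L-DL KD bar.

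The other events at the Z site describe the same region in other ways. One that takes exon 34, the intron after it and exon 35 as a single segment had a mean PSI of 0.130 in CTRL and 0.0327 in L-DL KD (edgeR adjusted p = 0.142, groups apart). For the intron itself (chr4:156167810-156168545, 736 nt), retention was 0.338, 0.198 and 0.329 in CTRL and 0.353, 0.563 and 0.850 in L-DL KD. The groups lay apart, by a narrow margin at the library at place 1 of L-DL KD.

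The counts show what this higher share was made of. Counts that retained the intron were 51, 32 and 48 in CTRL and 24, 36 and 34 in L-DL KD, so they were not higher in L-DL KD. Counts that joined exon 34 to exon 35 were 50, 65 and 49 against 22, 14 and 3, which is the junction of the form with both Z exons. The log2 change of retained over spliced counts was 1.71 (standard error 0.72, edgeR adjusted p = 0.349), and it was 1.06 without the library with 3 spliced counts and 2.46 without the L-DL KD library at place 1.

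A second retained intron lay far upstream, after exon 18 (chr4:156173131-156173542, 412 nt). Its PSI was 0.458, 0.490 and 0.569 in CTRL and 0.327, 0.390 and 0.372 in L-DL KD. Here retention was lower in every L-DL KD library, the opposite direction from the Z site intron (log2 change -0.84, standard error 0.38, edgeR adjusted p = 0.369).

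The remaining Agrn events differed little or rested on few counts. When the 24 nt exon was set against the form with the 33 nt exon alone, its PSI was 0.857 in CTRL and 0.967 in L-DL KD, with the libraries apart but with 3 counts in all at place 3 of L-DL KD (adjusted p = 0.624). For an alternative 3′ splice site, an alternative 5′ splice site and the 33 nt exon counted against the 24 nt exon alone, the groups overlapped (edgeR adjusted p 0.453 to 0.924). An 87 nt exon in the intron after exon 18 was hardly used, with 0 to 3 inclusion counts per library. In the 4 Agrn events not tested, PSI was 0.964 or higher in every library.

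The Y and the 24 nt exon are microexons, a class of very short, frame-keeping exons used mainly in neurons, so they were set beside the others. Among the 452 tested skipped-exon events of at most 27 nt, in 351 genes, PSI was lower in L-DL KD for 83.6%, with a median PSI difference of -0.08, against 55.9% and a median of -0.00385 for the 10138 events with longer exons. The PSI difference was -0.22 for the Y exon and -0.19 for the 24 nt exon, and 68 and 96 microexon events respectively had a more negative PSI difference. The difference between the short and the longer exons was not tested.

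The levels of the 3 genes differed far less between the groups than the exon choice of Agrn. Agrn (ENSMUSG00000041936, chr4:156165290-156197488) had 4493, 4276 and 4193 counts in CTRL and 4820, 4388 and 3764 in L-DL KD. Scaled, this was 277, 252 and 266 CPM against 266, 246 and 224 CPM, and the groups overlapped. Its log2 fold change was -0.11 (standard error 0.08, 95% interval -0.27 to 0.05, edgeR adjusted p = 0.335).

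Lrp4 (ENSMUSG00000027253, chr2:91457511-91513779), the receptor through which agrin reaches MuSK, had 60.7, 59.1 and 69.0 CPM in CTRL and 72.8, 76.8 and 70.4 CPM in L-DL KD. All L-DL KD libraries were above all CTRL libraries, but the gap between the nearest pair was small. The log2 fold change was 0.22 (standard error 0.08, 95% interval 0.06 to 0.38), with an edgeR adjusted p of 0.0727, which missed the threshold. It passed with scaling by library size alone (log2 fold change 0.25, adjusted p = 0.0391) and without CTRL replicate 3, the CTRL library with the most Lrp4 (0.29, adjusted p = 0.0485).

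Dag1 (ENSMUSG00000039952, chr9:108204634-108263958), which encodes both dystroglycan subunits, had 165, 155 and 157 CPM in CTRL and 182, 182 and 182 CPM in L-DL KD. The groups did not overlap, and the L-DL KD libraries were almost equal. Dag1 was 1.14-fold higher in L-DL KD (log2 fold change 0.19, standard error 0.06, edgeR adjusted p = 0.0407), the only one of the 3 genes to pass, where 30.5% of all 17621 genes tested passed and 15.6% were called higher. The groups did not overlap for Lrp4 and Dag1, as for 47.2% of all genes. The call on Dag1 was lost without a filter on low counts (edgeR adjusted p = 0.106) and with the replicate number as a block (adjusted p = 0.0803). It was also lost without any 1 of the 3 CTRL libraries or of L-DL KD replicates 2 and 3 (adjusted p 0.0636 to 0.15). Log2 fold changes in these settings were between 0.17 and 0.22.

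**Figure D3:**
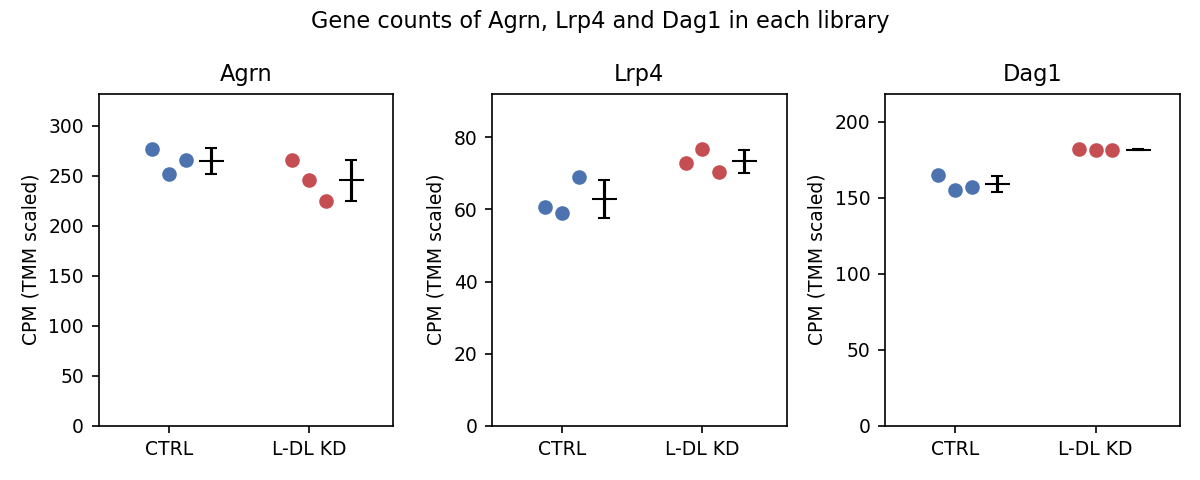
Level of Agrn, Lrp4 and Dag1 (CPM, TMM scaled, each axis from 0) in 3 CTRL (blue) and 3 L-DL KD (red) libraries, with the mean and SD. Agrn overlaps between the groups, while the L-DL KD points lie above the CTRL points for Lrp4 and, with almost no spread, for Dag1.

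Per kilobase of exon, Agrn and Dag1 stood at alike levels and Lrp4 well below both. In CTRL the level per length was 28.5 ± 1.37 CPM per kb for Agrn, 25.0 ± 0.802 for Dag1 and 5.99 ± 0.508 for Lrp4 (SD, n = 3 each). In L-DL KD it was 26.4 ± 2.22 for Agrn, 28.6 ± 0.0605 for Dag1 and 6.99 ± 0.307 for Lrp4. The order of Agrn and Dag1 was thus reversed between the groups, by small margins in both. Exon lengths were 9285 nt for Agrn, 6357 nt for Dag1 and 10504 nt for Lrp4, as the union over annotated transcripts.

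Neither of the 2 Dag1 events passed the test. A 135 nt exon was almost never used, with 0, 0 and 0 inclusion counts in CTRL and 5, 2 and 0 in L-DL KD, beside 65 to 154 skipping counts (edgeR adjusted p = 0.393). The other, a 57 nt exon, was included in nearly all counts, with a PSI of 0.952 in 1 CTRL library and 1 in the other 5, and was not tested.

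Across the 6 libraries the genes whose log2 CPM ran closest to Agrn were Pcbp2, Gm31294, Ndst4, Usp20 and Tarsl2 (Pearson r 0.987 to 0.999). Those closest to Lrp4 were Bcas1os2, Daam1, Rfx7, Chic1 and Gm11841 (0.983 to 0.990), and those closest to Dag1 were Tlr1, Trmt61a, Rnf130, Gm11457 and Ankrd44 (0.993 to 0.997). Between the 3 genes themselves r was 0.77 for Lrp4 and Dag1, -0.33 for Agrn and Lrp4 and -0.45 for Agrn and Dag1. With 6 points that share libraries and a group difference, and the nearest of 17621 genes picked, these values describe only these libraries.

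The genes around the 3 proteins were then counted by role. Over 9 lists with 122 genes, 117 were tested, of which 34 were called higher and 25 lower. This is 50.4% called, against 30.5% of all genes, with a median log2 fold change of 0.12 against 0.01 over all genes tested. Over all genes tested, 15.6% were called higher and 15% lower, the shares to set beside each list below.

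Downstream of agrin and LRP4, 13 of 15 genes of the MuSK pathway and the acetylcholine receptor were tested, with 1 called higher and 4 lower (median log2 fold change 0.05). This is 38.5% called, against 30.5% of all genes. Musk itself, the kinase, was barely detected, with 12 to 38 counts per library and 1.46 CPM in CTRL against 1.40 CPM in L-DL KD (log2 fold change -0.05, edgeR adjusted p = 0.95). Its adaptor Dok7 was at 17.2 and 17.9 CPM (log2 fold change 0.06, adjusted p = 0.732), and rapsyn (Rapsn), which gathers the receptors, at 0.985 and 1.54 CPM (adjusted p = 0.158). The muscle-type receptor subunit Chrna1 was called higher, with 20, 54 and 33 counts in CTRL and 86, 195 and 213 in L-DL KD (log2 fold change 2.12, adjusted p = 0.00874).

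The receptor subunit Chrne was called lower but rested on 10 to 15 counts in CTRL and 1 to 6 in L-DL KD. The kinase Abl2 fell from 112 to 78.1 CPM (log2 fold change -0.53, adjusted p = 0.000969), and Pak1 and Dvl1 were also called lower. Chrnd and Chrng had too few counts to be tested. Skeletal muscle markers, of which 2 of 6 had enough counts to be tested, summed to 6.35 to 8.30 CPM in CTRL and 6.26 to 8.24 CPM in L-DL KD.

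Of the ligands, relatives and chaperones of LRP4, 11 were tested, with 6 called higher, the other 5 not called, and a median log2 fold change of 0.32. The share called was 54.5%, against 30.5% of all genes. Apoe, a lipid carrier that binds LRP4, rose from 3754, 3247 and 3618 CPM to 7532, 9433 and 10650 CPM (log2 fold change 1.38, adjusted p = 0.000336). The chaperones Lrpap1 and Mesd were higher by 0.96 (adjusted p = 0.000592) and 0.32 (adjusted p = 0.042) on the log2 scale. Lrp1, Lrp5 and Lrp8 were also called higher. Apoe and Lrp1 are expressed strongly by glia. Summed microglial markers were 1209 to 1507 CPM in CTRL and 2556 to 3297 CPM in L-DL KD, and summed astrocyte markers were 8046 to 8185 CPM and 6283 to 7425 CPM. Their part in these values was not tested.

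On the intracellular side of dystroglycan, the dystrophin complex had 17 of 19 genes tested, 3 higher and 3 lower, with a median log2 fold change of 0.03. That is 35.3% called, against 30.5% of all genes. Utrophin (Utrn), the relative of dystrophin in vessels and glia, rose from 64.0, 54.4 and 68.8 CPM to 81.5, 90.5 and 89.2 CPM (log2 fold change 0.48, adjusted p = 0.00777). Dystrophin itself (Dmd) had a log2 fold change of 0.23 (adjusted p = 0.0645), dystrobrevin Dtna 0.28 (adjusted p = 0.0607) and the brain sarcoglycan Sgce 0.01 (adjusted p = 0.974). None of these 3 passed the test.

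The largest fold change in that list was in Sgca, a sarcoglycan best known from muscle, with 20, 19 and 12 counts in CTRL and 242, 165 and 159 in L-DL KD (log2 fold change 3.35, adjusted p = 0.000186). Aqp4, the water channel that the complex anchors on astrocyte endfeet, rose from 369 to 587 CPM (log2 fold change 0.67, adjusted p = 0.00175), whereas the potassium channel Kcnj10 of the same endfeet fell by 0.20 on the log2 scale (adjusted p = 0.0343). Sntg1 and Dtnb, a syntrophin and a dystrobrevin of neurons, were called lower at -0.60 and -0.25 (adjusted p = 0.0106 and 0.0308). Among astrocyte markers, Aqp4 included, 2 of 10 were called higher and 4 lower, against 15.6% and 15% of all genes tested.

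Among these lists, the enzymes that build the O-mannosyl sugars of dystroglycan, to which agrin and laminin bind, were called least often. All 18 were tested, with 1 called higher and 2 lower, or 16.7% called against 30.5% of all genes. Pomt2 was higher (log2 fold change 0.37, adjusted p = 0.0245), and Pomk, the kinase of the sugar chain, fell by 0.37 on the log2 scale (adjusted p = 0.0341). Pomt1, which starts the chain, and Pomgnt1, which extends it, had log2 fold changes of -0.31 and 0.25 and did not pass (adjusted p = 0.109 and 0.211). Pomgnt2 and Dpm3 narrowly missed the threshold at -0.57 and -0.59, with the groups apart (edgeR adjusted p = 0.0507 and 0.0531). Of the 18, 10 had a log2 fold change above 0.

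The list of extracellular ligands of dystroglycan, with the laminin chains that assemble with them, was called most often, with 9 of 14 higher and 2 lower and a median log2 fold change of 0.82. Its share called was 78.6%, against 30.5% of all genes. Perlecan (Hspg2), a basement membrane proteoglycan, rose from 30.3, 24.8 and 38.7 CPM to 142, 79.3 and 83.3 CPM (log2 fold change 1.70, adjusted p = 0.00195). Laminin α2 (Lama2) and pikachurin (Egflam) were higher by 0.87 (adjusted p = 0.000982) and 0.98 (adjusted p = 0.0106). Other laminin chains, Lama1, Lama4, Lama5, Lamb2, Lamc1 and Lamc3, were also called higher.

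Neurexins are presynaptic ligands of dystroglycan on neurons. Nrxn3 fell from 165, 144 and 156 CPM to 97.5, 109 and 62.3 CPM (log2 fold change -0.79, adjusted p = 0.0136), while Nrxn2 had a log2 fold change of -0.10 (adjusted p = 0.324). Beside these values, 4 of 10 endothelial and 4 of 7 tested mural cell markers were called higher, against 15.6% of all genes tested, and the others were not called. Summed endothelial markers were 351 to 385 CPM in CTRL against 434 to 540 CPM in L-DL KD. Summed meningeal fibroblast markers were 117 to 150 CPM against 209 to 350 CPM, and the part of these cells in the ligand values was not tested.

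Agrin belongs to the heparan sulfate proteoglycans, of which 15 others were tested, with 5 higher and 3 lower, or 53.3% called against 30.5% of all genes. Sdc1, a syndecan, was higher by 1.69 on the log2 scale (adjusted p = 0.00964). Spock1, a proteoglycan of neurons, fell from 193, 175 and 198 CPM to 74.8, 59.1 and 48.0 CPM (log2 fold change -1.64, adjusted p = 0.000292), and the glypican Gpc5 fell by 0.94 (adjusted p = 0.00196). Agrn, between these extremes, overlapped between the groups.

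Of 4 proteases, neurotrypsin (Prss12), which cuts agrin at synapses, had 202, 143 and 156 counts in CTRL and 194, 185 and 150 in L-DL KD (log2 fold change -0.04, adjusted p = 0.901). Mmp2, which cuts dystroglycan, rose from 23.9, 15.2 and 19.8 CPM to 78.7, 73.4 and 73.9 CPM (log2 fold change 1.94, adjusted p = 0.000179). Mmp3, which cuts agrin, was called higher on 4, 2 and 3 counts in CTRL and 114, 35 and 12 in L-DL KD (log2 fold change 3.97, adjusted p = 0.0115). Mmp9 was not called.

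Among 9 other proteins that bind agrin, 6 were called higher and 1 lower, or 77.8% called against 30.5% of all genes. Integrin β1 (Itgb1) was higher by 0.86 (adjusted p = 0.000209) and Tgfb1 by 0.83 on the log2 scale (adjusted p = 0.0233). Lamc1 and Hspg2 stand in more than 1 list and count once in the total.

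**Figure D4:**
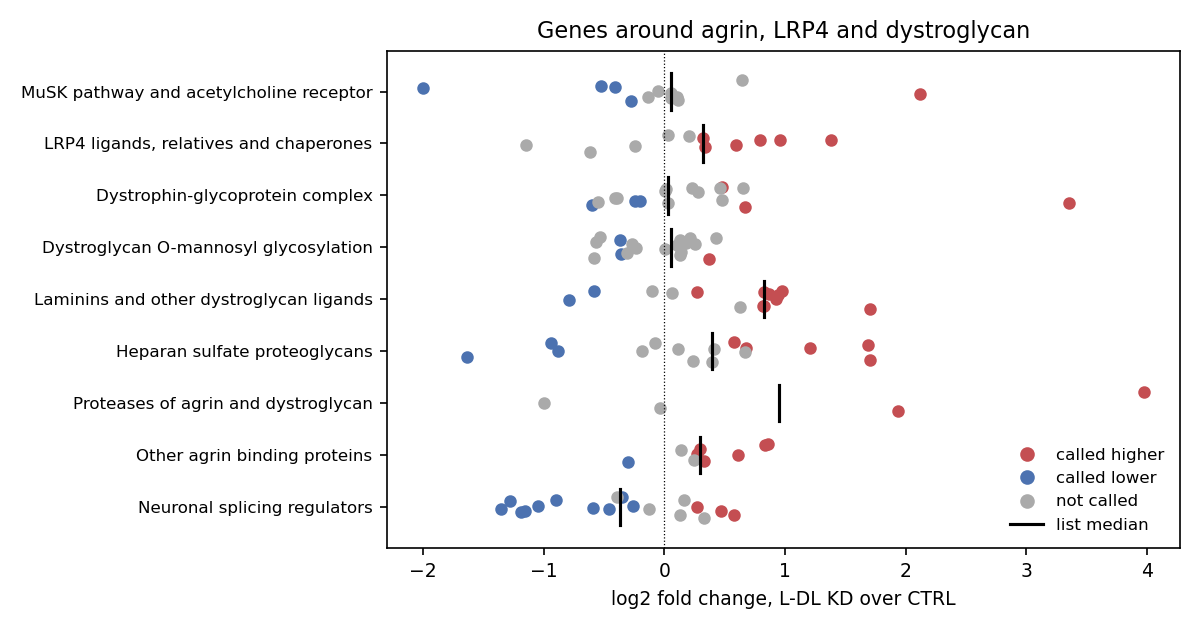
Log2 fold change (L-DL KD over CTRL, horizontal axis) of each tested gene in 9 lists around agrin, LRP4 and dystroglycan, with the genes called higher in red, those called lower in blue, the others in grey and a bar at the median of each list. Laminins and other dystroglycan ligands have a median of 0.82, and neuronal splicing regulators have one of -0.37.

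Proteins known to govern neuronal exons were listed because NOVA proteins are known to act on the Agrn Z exons. Of 18, 3 were called higher and 10 lower, with a median log2 fold change of -0.37, or 72.2% called against 30.5% of all genes. Nova1 rose slightly, from 42.5, 43.6 and 41.5 CPM to 51.0, 51.5 and 51.0 CPM (log2 fold change 0.27, adjusted p = 0.0179). Nova2 had 66.3, 58.3 and 62.9 CPM in CTRL and 61.3, 44.0 and 37.8 CPM in L-DL KD, with an overlap at L-DL KD replicate 1 (-0.39, adjusted p = 0.109).

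Rbfox3 (NeuN), also a neuronal marker, fell from 249, 245 and 256 CPM to 111, 97.0 and 86.0 CPM (log2 fold change -1.35, adjusted p = 0.000135), and Elavl2 fell by 1.28 (adjusted p = 0.00029). In the PTB family, known to repress neuronal exons, Ptbp1 and Ptbp3 were higher by 0.58 and 0.47 on the log2 scale (adjusted p = 0.00678 and 0.0102). Ptbp2, the member used mainly by neurons, fell by 0.35 (adjusted p = 0.00573). These differences ran alongside those of neuronal markers, whose sum was 6388 to 6807 CPM in CTRL and 4489 to 5235 CPM in L-DL KD. Whether fewer neuronal Agrn transcripts in the tissue or a different exon choice in each cell gave the lower Z share was not tested, and bulk libraries do not separate them.

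The labelled tissue was checked by Prox1, Fibcd1, Wfs1, Neurod6 and Zbtb20, markers of hippocampal neurons, and all 5 were detected. Neurod6 and Wfs1, of pyramidal neurons, were lower by a log2 fold change of -2.21 and -0.73 (adjusted p = 0.000349 and 0.0292), and Zbtb20 was higher by 0.58 (adjusted p = 0.0201). Prox1 and Fibcd1 had log2 fold changes of 0.29 and 0.31 and were not called (edgeR adjusted p = 0.0512 and 0.269). No marker gene of any list had 0 counts in all libraries. Choroid plexus markers, which come with neighbouring tissue, varied most within the groups, from 438 to 4629 CPM in CTRL and from 31.8 to 5199 CPM in L-DL KD, and overlapped. Summed oligodendrocyte markers were 8175 to 8750 CPM and 6943 to 10234 CPM, and overlapped.

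**Figure D5:**
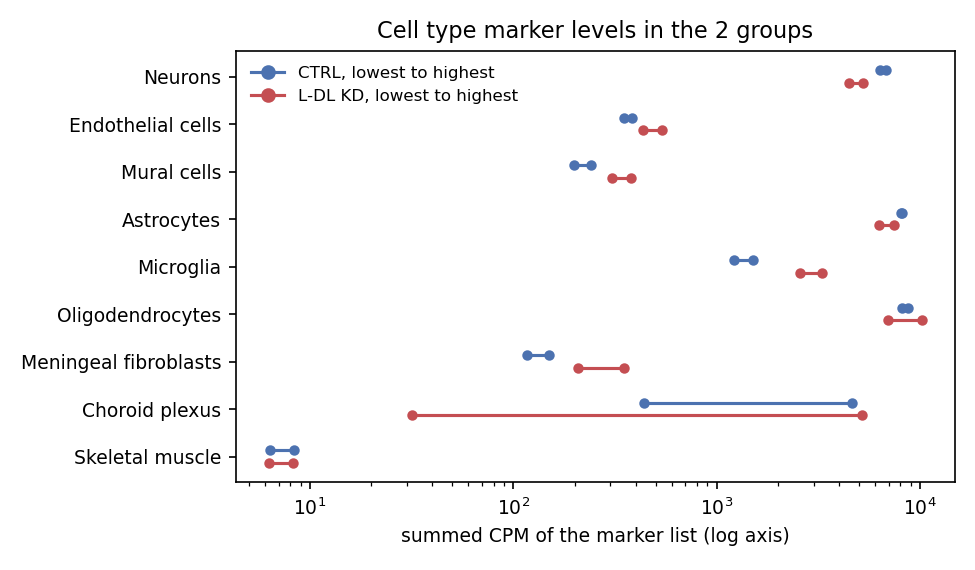
Lowest to highest summed CPM (log axis) of each cell type marker list over 3 CTRL (blue) and 3 L-DL KD (red) libraries. The ranges lie apart for neurons and astrocytes, lower in L-DL KD, and for endothelial cells, mural cells, microglia and meningeal fibroblasts, higher in L-DL KD, and they overlap for oligodendrocytes, choroid plexus and skeletal muscle.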

How the data were processed

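The authors sequenced oligo(dT)-selected mRNA as 150 nt read pairs, aligned it to GRCm38 (Ensembl release 90) and deposited raw counts per Ensembl gene, with no normalization. They also deposited rMATS (version 4.1.0) output, with inclusion and skipping junction counts and effective lengths for each event. Its columns of PSI, PSI difference, p-value and FDR are the authors' own comparison and were not used. Submitters' processing notes name HISAT2 (version 2.1.0), Bowtie (version 1.1.2) and HTSeq (version 0.6.1) without roles, and whether counting used strand is not given in the sources used here. The first sample of the rMATS table was taken as L-DL KD, after the paper's definition of its PSI difference. Over 8499 genes the log ratios of junction and gene counts so assigned had a Pearson r of 0.93 across genes, which are not independent replicates.

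Gene counts were tested with edgeR (version 4.0.16, R version 4.3.3) by glmQLFit and glmQLFTest, with TMM scaling, for the 17621 genes that had 10 counts or more in 3 or more libraries. A call is a Benjamini-Hochberg adjusted p under 0.05 over all of them, two-sided. Events were tested with edgeR on the counts of both forms with an effect for each library, if their counts averaged 20 or more per library, with 1 or more for each form. Likeness used log2 CPM with a prior count of 2. Shares carry 95% Wilson intervals, and a count of 0 is read as a limit of 3 counts, for counting error only. Groups of 3 were also compared by two-sided exact permutation tests. Both models were also run on simulated data with a fixed spread between libraries. Those runs do not show how the models behave on these libraries. Symbols matched 52403 of 52550 gene IDs, and no row lacked a gene ID. Alternatives were DESeq2 (version 1.42.0), limma (version 3.58.1, with 0.5 added to counts), library-size scaling, other filters, a replicate block, PSI without lengths and leaving out each library.

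The members, the lists and their tests were chosen with earlier results of these data known. Named genes are the 3 members, Hnrnpdl, listed genes of known direct role, the 2 called genes with the largest rise and fall in each list, and the 5 genes most like each member. Other list genes were named after their values were seen. The labels say that the libraries are separate samples of a group, and p-values measure the spread between them. Intronic sequence and protein sequence were not used here. Some genes that the rule names are not reported here.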

Additional observations from a re-analysis of the deposited data

How the results depend on the processing

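Dag1 kept its direction under all alternatives run, but its call was lost with no filter on low counts (log2 fold change 0.19, adjusted p = 0.106), where 0 of the 3 genes were called. Lrp4 was called with library-size scaling (0.25), which made 2 genes called. With 1 library left out, log2 fold changes ranged from 0.17 to 0.22 for Dag1 and from 0.18 to 0.29 for Lrp4, members called from 0 to 1, all genes called from 3498 to 6477, those higher from 1770 to 3236 and those lower from 1676 to 3241. DESeq2 and a minimum of 50 counts changed neither the calls nor the directions of the 3 genes.

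Deviations of same-numbered libraries from their group means had a Pearson r of 0.05, 0.13 and -0.11. With 3 libraries in each group, these values cannot decide whether the numbers pair the samples. With the replicate number as a block, the log2 fold change of Dag1 was 0.19 (adjusted p = 0.0803) and 0 of the 3 genes were called, with no other call on them changed. No paired analysis was possible for splicing events because the table gives no replicate numbers.

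For events, limma called 0 of all events tested, where edgeR called 48. With 1 library left out, edgeR called 0 to 52 of all events and 0 to 1 of the Agrn and Dag1 events, and the log2 change of the 33 nt exon ranged from -5.04 to -3.23. The alternative 5′ splice site of Agrn had a log2 change of -0.22, which ranged from -0.523 to 0.0482 with 1 library left out and was above 0 without the L-DL KD library at place 3. PSI without effective lengths and other count minimums changed no direction of the Y and Z exons. Counting the retained intron as a Z form, chosen after seeing the data, gave a difference of -32.2 points in place of -33.9. The causes were not tested. Depth limits the Z site, where 173 to 227 form-specific counts per library stand behind each share.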
